A study of Mus musculus with 8 samples.

Results

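The NF-kB system was represented by 10 genes that were followed through in vitro stimulation of P14 CD8 T cells: the 5 subunits *Nfkb1*, *Nfkb2*, *Rel*, *Rela* and *Relb*, and the 5 inhibitors *Nfkbia*, *Nfkbie*, *Nfkbid*, *Nfkbiz* and *Tnfaip3*. They were chosen by symbol, though with earlier results of these data known, and all 10 were found among the 24303 genes of the deposited table. All 4 conditions share 1 antigen receptor, since P14 mice are transgenic for a receptor that recognizes GP33, a peptide of lymphocytic choriomeningitis virus (LCMV). The cells were naive CD8 T cells from spleen, activated on plates coated with anti-CD3 and anti-CD28 for the first 2 days. Effector cells were collected on day 7. The labels do not state what they received after day 2, and for flow cytometry the study calls its day 7 effector cells stimulated for 7 days. Acute-2d cells got no peptide after day 2 and Acute-7d cells were given GP33 repeatedly up to day 7, and both were then kept without peptide to day 19. T_Dysf cells, labelled dysfunctional, received GP33 repeatedly to day 19 and TGF-β1 from day 7 on. There are 2 libraries per condition, called biological replicates in the figure legends of the study. The donor mice were male or female and at least 8 weeks old by the methods, and the labels do not say which mice gave which library. T_Dysf cells therefore differ from Acute-7d cells in peptide and in TGF-β1 together, and Effector cells differ from the others in day of collection.

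NF-kB factors are dimers of 5 Rel-domain proteins. In resting T cells they are held in the cytoplasm by IkB proteins, and T cell receptor and CD28 signals activate the IKK kinase, which marks IkB for degradation and lets the dimers enter the nucleus. NF-kB drives the transcription of several of its own inhibitors, which gives the pathway its negative feedback. Transcript levels alone do not tell how much NF-kB is in the nucleus.

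The promoters of 5 members are printed here because 4 of them hold the κB motif, the kind of sequence that NF-kB dimers bind, and that of *Rela* does not. The sequences are from RefSeq for GRCm38.p6, 5′ to 3′ on the strand of the gene, and each is the longest stretch of the 250 bases before the start site that lies outside annotated exons. Capitals mark matches to the κB motif on either strand. The *Tnfaip3* stretch lies inside the annotated gene (19000910-19015657), because the start used for it is further in. Of the 250 bases before that start, 110 are in annotated exons.
*Nfkbia* chr12:55492648-55492897 (minus strand): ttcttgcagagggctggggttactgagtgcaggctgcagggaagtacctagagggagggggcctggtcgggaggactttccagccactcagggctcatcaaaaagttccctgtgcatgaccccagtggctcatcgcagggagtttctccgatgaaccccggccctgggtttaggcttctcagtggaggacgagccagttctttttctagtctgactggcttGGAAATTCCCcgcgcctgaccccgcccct
*Rel* chr11:23770971-23771219 (minus strand): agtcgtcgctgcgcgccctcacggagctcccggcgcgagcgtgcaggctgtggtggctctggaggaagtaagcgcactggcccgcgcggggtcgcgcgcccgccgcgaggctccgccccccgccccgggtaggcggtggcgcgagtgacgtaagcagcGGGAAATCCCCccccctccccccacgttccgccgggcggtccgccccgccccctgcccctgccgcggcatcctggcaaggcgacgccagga
*Nfkbie* chr17:45555450-45555699 (plus strand): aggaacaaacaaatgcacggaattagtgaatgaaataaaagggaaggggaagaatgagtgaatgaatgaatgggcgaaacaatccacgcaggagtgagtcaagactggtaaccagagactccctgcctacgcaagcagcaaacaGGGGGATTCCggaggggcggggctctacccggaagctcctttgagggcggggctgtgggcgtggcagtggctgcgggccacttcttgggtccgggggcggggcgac
*Tnfaip3* chr10:19015411-19015547 (minus strand): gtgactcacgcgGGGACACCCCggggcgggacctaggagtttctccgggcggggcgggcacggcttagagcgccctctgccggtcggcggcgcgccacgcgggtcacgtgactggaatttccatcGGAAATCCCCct
*Rela* chr19:5637291-5637482 (plus strand): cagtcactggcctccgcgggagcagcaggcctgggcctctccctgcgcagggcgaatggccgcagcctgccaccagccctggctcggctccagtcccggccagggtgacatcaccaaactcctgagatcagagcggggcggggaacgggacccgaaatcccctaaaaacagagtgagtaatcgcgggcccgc

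Promoter windows were found for 7 of the 10 members (12 windows), and not for *Nfkb1*, *Relb* and *Nfkbiz*. A κB match stood within 250 bases before the start in at least 1 window of 6 of these 7 genes, *Nfkb2*, *Rel*, *Nfkbia*, *Nfkbie*, *Nfkbid* and *Tnfaip3*. Over all genes with a window, 4.46% of 27025 had one, and 3.9% of all 32851 windows did. The *Nfkbia* match lay 29 to 20 bases before the start. The *Rel* match lay at 92 to 82 bases, where matches on both strands overlap. *Nfkbie* had its match at 106 to 97 bases, and *Tnfaip3* had matches at 125 to 116 and at 12 to 3 bases. The starts used for the matched windows of *Tnfaip3*, *Nfkb2* and *Nfkbid* lie inside the annotated genes. A match is a description of the letters in the window and does not show binding in these cells.

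The libraries held 19381799 to 24856224 reads on genes. The summed level of 7 CD8 T cell markers was between 69892 and 138336 normalized counts in every library, and highest in both T_Dysf libraries, although *Cd5* alone was lowest there (691 and 694, against 1650.3 to 4144 elsewhere). *Cd4* was at 13.0 or less throughout. B cell markers summed to at most 182, erythroid markers to at most 42.6, myeloid markers to at most 664, and dendritic cell markers to at most 568. NK cell markers summed to between 249 and 1497 and the CD4 list to between 1043 and 1629, of which *Zbtb7b* made nearly all. The plasma cell list stood at 350.3 and 423 in T_Dysf against 7.09 to 26.1 elsewhere, mainly through *Jchain* (236 and 275 in T_Dysf) and *Sdc1*. Its part in the results below was not tested. In bulk RNA, fewer cells of a type and less RNA per cell cannot be told apart, and p-values measure only the spread between these libraries. The word RESUB opens the library names of both Effector replicates and of the first Acute-7d replicate. The labels do not explain it, and it overlaps with the Effector condition in part. Only Acute-7d has libraries with and without the prefix, so a term for it rests on the difference between the Acute-7d replicates alone.

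Among the 5 subunits, *Rela* alone passed the F test of the 4 conditions together, which 20.2% of all genes passed. Normalized counts per kb of exon give an order between genes: *Nfkb1* was the most abundant subunit in every condition, with means from 1922 ± 38.0 (SD, n = 2) in T_Dysf to 2428 ± 166 in Acute-2d. *Rela* followed at 1083 ± 58.7 in Effector to 1670 ± 53.9 in T_Dysf. *Nfkb2* and *Relb* stood at 492 to 675 and at 484 to 613, so their order was not clear of the spread, and *Rel* was lowest at 168 to 230. On this scale *Nfkb1* made up 39.5% to 50.5% of the 5 subunits together in each library.

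*Rela*, on chromosome 19 (5637483-5648130, plus strand), encodes p65, the main transactivating subunit of the classical route. Its normalized counts were 4639 and 4432 in T_Dysf, 4446 and 4563 in Acute-7d, 4634 and 4247 in Acute-2d, and 2828 and 3054 in Effector. Both Effector libraries lay below the other 6, which overlapped among themselves. The log2 difference of T_Dysf against Effector was 0.63 ± 0.07 (SE; limma, adjusted p = 0.00976), a ratio of 1.54. Effector against Acute-7d gave -0.62 (adjusted p = 0.0150) and against Acute-2d -0.59 (adjusted p = 0.0132). All 3 passed the adjusted p but were under the 2-fold minimum. T_Dysf and Acute-7d did not differ detectably, at 0.01 with a 95% interval from -0.17 to 0.19. With a term for the RESUB prefix the 3 Effector differences were 0.59, -0.60 and -0.56, and their adjusted p rose to 0.147, 0.0577 and 0.157. Fits of the compared conditions alone gave 0.0653, 0.0972 and 0.108. Without T_Dysf replicate 1 the first had an adjusted p of 0.0638, without Acute-7d replicate 1 or 2 the second had 0.0729 or 0.0575, and without Acute-2d replicate 1 the last had 0.0562. Pooled, Effector and T_Dysf stood -0.29 from both Acute conditions (adjusted p = 0.0197), and leaving out Acute-2d replicate 1 or any 1 library of Acute-7d or T_Dysf raised this p to between 0.0542 and 0.0655.

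*Nfkb1*, on chromosome 3 (135584655-135691547, minus strand), encodes p105, which is processed to the p50 partner of p65. It stood at 8039 and 7817 in T_Dysf, 9344 and 8552 in Acute-7d, 9529 and 10497 in Acute-2d, and 7968 and 9596 in Effector. The T_Dysf libraries lay under all 4 Acute libraries, but the log2 difference was small, at -0.17 against Acute-7d (95% interval -0.47 to 0.13, adjusted p = 0.411) and -0.34 against Acute-2d (-0.64 to -0.04, adjusted p = 0.145).

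*Nfkb2* (chromosome 19, 46304320-46312385, plus strand) and *Relb* (chromosome 7, 19606217-19629438, minus strand) encode the pair of the alternative route, p100, which is processed to p52, and RelB. *Nfkb2* was at 2154 and 2001 in T_Dysf, 2826 and 2872 in Acute-7d, 2832 and 2317 in Acute-2d, and 1767 and 3547 in Effector. *Relb* was at 1065 and 1075 in T_Dysf, 1305 and 1406 in Acute-7d, 1570.3 and 1107 in Acute-2d, and 711 and 1538 in Effector. For both genes the T_Dysf libraries lay below all 4 Acute libraries, while the Effector libraries spanned nearly the whole range. Against Acute-7d the log2 difference of T_Dysf was -0.46 for *Nfkb2* (95% interval -1.33 to 0.42, adjusted p = 0.459) and -0.34 for *Relb* (-1.36 to 0.68, adjusted p = 0.660).

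*Rel*, on chromosome 11 (23736847-23770970, minus strand), encodes c-Rel, a subunit that is prominent in lymphocytes and acts on *Il2*. Its values were 1833 and 1607 in T_Dysf, 1704 and 1357 in Acute-7d, 2138 and 948 in Acute-2d, and 852 and 1651 in Effector. No pair of conditions was clear of overlap, and T_Dysf against Acute-7d was 0.17 (95% interval -1.12 to 1.47, adjusted p = 0.918). The interval reaches past 2-fold in both directions.

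**Figure D1:**
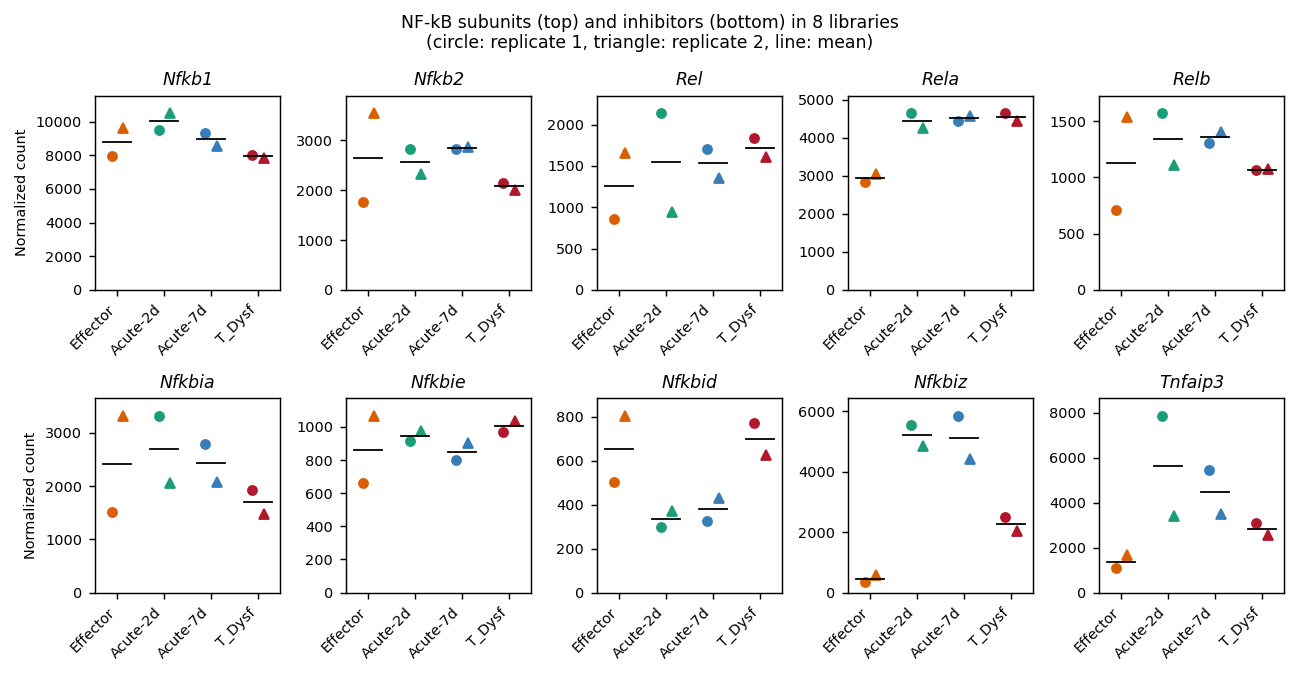
Normalized counts (vertical axes, linear from 0) of the 10 genes in the 4 conditions, with the 5 subunits above and the 5 inhibitors below; circles are replicate 1, triangles replicate 2 and lines the mean of 2. *Nfkbiz* lies at 337 and 585 in Effector, between 2052 and 2498 in T_Dysf and at 4413 or more in both Acute conditions. Of the subunits, *Rel* overlaps between all conditions and *Rela* is lower in Effector alone. For *Nfkb1*, *Nfkb2* and *Relb*, T_Dysf lies below both Acute conditions and Effector overlaps every other condition.

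Of the 5 inhibitors, *Nfkbiz*, *Tnfaip3* and *Nfkbid* had a wider range of group means than any subunit, and *Nfkbie* had the narrowest of all 10 genes at 0.26. *Nfkbiz* alone of the 5 inhibitors passed the F test, which 20.2% of all genes passed. The group means of *Nfkbiz* spanned 3.54 on the log2 scale, those of *Tnfaip3* 1.94, those of *Nfkbid* 1.06 and those of *Nfkbia* 0.632. The range of the subunits ran from 0.34 (*Nfkb1*) to 0.626 (*Rela*). The order of *Nfkbia* and *Rela* was not clear of the spread, since the 2 Effector replicates of *Nfkbia* differed by 1.12.

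*Nfkbiz*, on chromosome 16 (55811375-55838899, minus strand), encodes IkBζ, an atypical nuclear IkB protein that can act as a coactivator of NF-kB targets. Its normalized counts were 2498 and 2052 in T_Dysf, 5845 and 4413 in Acute-7d, 5557 and 4850.4 in Acute-2d, and 337 and 585 in Effector. In the same order the means were 2275 ± 315 (SD, n = 2), 5129 ± 1013, 5203 ± 499 and 461 ± 175. Effector, T_Dysf and the 4 Acute libraries thus formed 3 levels with no overlap. *Nfkbiz* was 11.4-fold lower in Effector than in Acute-7d (log2 -3.51 ± 0.31, adjusted p = 0.0109) and 11.7-fold lower than in Acute-2d (-3.54, adjusted p = 0.00959). It was 5.09-fold higher in T_Dysf than in Effector (2.35 ± 0.31, adjusted p = 0.0135). These calls were lost in fits of the compared conditions alone, with adjusted p of 0.0972, 0.0884 and 0.0878, where calls over all genes fell to 0.638%, 0.967% and 1.91%. The first was also lost without Acute-7d replicate 1 (0.0534) and the last without T_Dysf replicate 1 (0.0805).

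The step between T_Dysf and the Acute conditions in *Nfkbiz* was not called. T_Dysf was 2.24-fold below Acute-7d (log2 -1.17 ± 0.31, 95% interval -1.96 to -0.37, adjusted p = 0.0910) and 2.29-fold below Acute-2d (-1.20, adjusted p = 0.0765). When only the genes with a mean of at least 50 were tested the adjusted p were 0.0203 and 0.0152 (12.3% and 14.1% of those genes called). With a RESUB term the log2 differences were -0.96, under 2-fold, and -1.20, with adjusted p of 0.315 and 0.114. A replicate block gave adjusted p of 0.1499 and 0.132. No Effector library enters these log2 differences, so leaving out Effector replicate 1 kept them at -1.17 and -1.20 and changed only the estimate of the spread. The call thus turns on which genes and libraries enter and on which terms are fitted. With a RESUB term, T_Dysf is in effect compared with Acute-7d replicate 2 alone, and Effector with Acute-7d replicate 1 alone. Both Effector values (337 and 585) lay under that replicate (5845), and the log2 difference was -3.72 (limma, adjusted p = 0.0353). With the same term Effector against Acute-2d gave -3.95 (adjusted p = 0.0791), and T_Dysf against Effector gave 2.75 (adjusted p = 0.123).

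*Tnfaip3*, on chromosome 10 (19000910-19015657, minus strand), encodes A20, a ubiquitin-editing enzyme that ends signalling upstream of IKK. It was at 3083 and 2571 in T_Dysf, 5441 and 3502 in Acute-7d, 7853 and 3410.3 in Acute-2d, and 1088 and 1678 in Effector. The order of conditions was that of *Nfkbiz*, with no overlap between Effector, T_Dysf and the Acute libraries, but the Acute-2d replicates differed 2.30-fold. No comparison was called: the log2 difference was -1.94 in Effector against Acute-2d (95% interval -3.20 to -0.67, adjusted p = 0.0609), -1.69 against Acute-7d (adjusted p = 0.0864), and -0.63 in T_Dysf against Acute-7d (-1.89 to 0.63, adjusted p = 0.478). With genes of a mean of at least 50 alone, the first 2 had adjusted p of 0.00955 and 0.0162. Quantile normalization gave 0.0471 and 0.0673. Fits of the compared conditions alone went the other way, with adjusted p of 0.190 and 0.148. With a RESUB term the log2 differences were -2.57 (adjusted p = 0.240) and -2.01, and neither was called.

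*Nfkbid*, on chromosome 7 (30421732-30428746, plus strand), encodes IkBNS, another atypical nuclear IkB protein. Its normalized counts were 502 and 803 in Effector and 771 and 626 in T_Dysf, against 298 and 369 in Acute-2d and 325 and 431 in Acute-7d. All 4 Effector and T_Dysf libraries lay above all 4 Acute libraries. In the pooled comparison of Effector and T_Dysf with both Acute conditions the log2 difference was 0.91 ± 0.21 (limma, adjusted p = 0.0406), a ratio of 1.88, under the 2-fold minimum. T_Dysf against Acute-7d gave 0.89 (95% interval 0.14 to 1.64, adjusted p = 0.139) and against Acute-2d 1.06 (adjusted p = 0.0879). The pooled adjusted p was over 0.05 without Effector replicate 2 (0.0696) and without any 1 of the Acute or T_Dysf libraries (0.0735 to 0.121).

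The classical IkB genes, whose products hold the dimers in the cytoplasm, had 0 calls in the 7 comparisons, where 0.169% to 9.22% of all genes were called. *Nfkbia* (chromosome 12, 55489410-55492647, minus strand; IkBα) was at 1935 and 1473 in T_Dysf, 2799 and 2079 in Acute-7d, 3318.5 and 2065 in Acute-2d, and 1519.6 and 3312 in Effector. The T_Dysf libraries lay under the 4 Acute libraries, at a log2 difference of -0.51 against Acute-7d (95% interval -1.71 to 0.68, adjusted p = 0.548). *Nfkbie* (chromosome 17, 45555703-45563169, plus strand; IkBε) was at 972 and 1038 in T_Dysf, 798 and 899.7 in Acute-7d, 915 and 974 in Acute-2d, and 659 and 1065 in Effector. Its difference between T_Dysf and Acute-7d was 0.25 (-0.36 to 0.85, adjusted p = 0.575).

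Counted over the 10 genes, 0 were called between T_Dysf and Acute-7d, where 5.57% of all genes were, and 2 had an unadjusted p under 0.05 (26.1% of all genes, limma). Between T_Dysf and Acute-2d 0 were called (7.35% of all genes) and 3 had an unadjusted p under 0.05 (27.7%). *Nfkbiz* was the 1 gene called between T_Dysf and Effector (9.22% of all genes), between Effector and Acute-7d (8.06%), between Effector and Acute-2d (8.78%) and in the pooled comparison (8.18%). Between the Acute conditions 0 were called (0.169% of all genes), and 0 had an unadjusted p under 0.05 (7.31%). *Rela* and *Nfkbiz* passed the F test over 4 conditions, 2 of 10 against 20.2% of all genes. The shares of members called are near those of all genes. Without the fold minimum, *Rela* joined *Nfkbiz* in T_Dysf against Effector (15.6% of all genes), Effector against Acute-7d (14.9%) and Effector against Acute-2d (15.7%), and *Rela* and *Nfkbid* joined it in the pooled comparison (20%). With the fold minimum and an unadjusted p, *Nfkbiz* alone passed in T_Dysf against Acute-7d (13.1% of all genes) and *Nfkbiz* and *Nfkbid* in T_Dysf against Acute-2d (14.5%). By the same rule *Nfkbiz* and *Tnfaip3* passed in Effector against Acute-7d (14.5%), Effector against Acute-2d (15.2%) and the pooled comparison (12.3%).

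Libraries of T_Dysf and Acute-7d did not overlap for 8 of the 10 genes, where 54.8% of all genes did not overlap. The corresponding counts were 7 against Acute-2d (54.3% of all genes), 3 against Effector (56.4%), 4 for Effector against either Acute condition (54.9% for Acute-7d and 54.2% for Acute-2d), 2 between the Acute conditions (32.1%) and 3 in the pooled comparison (19.1%), these 3 being *Nfkbid*, *Nfkbiz* and *Tnfaip3*. The median log2 difference of the 10 genes was -0.26 in T_Dysf against Acute-7d, -0.30 against Acute-2d and 0.20 against Effector. It was -0.27 in Effector against Acute-7d, -0.24 against Acute-2d, -0.0049 between the Acute conditions and -0.27 in the pooled comparison. The median over all genes was -0.022 in the pooled comparison and 0 in the others. The comparisons share libraries and are not independent of each other.

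**Figure D2:**
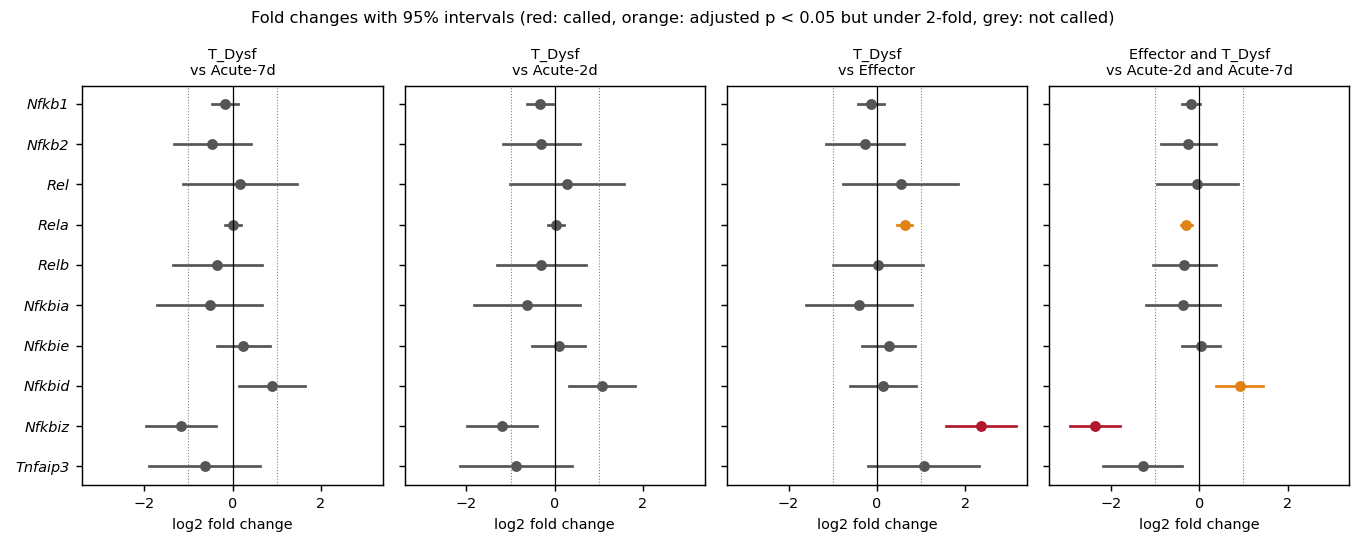
Log2 fold changes (horizontal axes) with 95% intervals of the 10 genes in 4 comparisons, from 1 limma fit of 24303 genes; red marks called genes, orange an adjusted p under 0.05 with less than a 2-fold change, and dotted lines a 2-fold change. Red appears for *Nfkbiz* alone, at 2.35 for T_Dysf against Effector and at -2.35 in the pooled comparison.

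The replicates of each condition differed more in these genes, by the median, than over all genes, and most so in Effector. All 10 members were higher in Effector replicate 2 than in replicate 1, from 0.11 on the log2 scale for *Rela* to 1.12 for *Nfkbia*. The median absolute difference there was 0.74, against 0.25 over the 9578 genes with a mean of at least 200, and 7 of the 10 lay above the 90th percentile of those genes (0.65). In Acute-2d 4 of 10 lay above it (0.50), among them *Tnfaip3* (-1.20) and *Rel* (-1.17), both higher in replicate 1. In Acute-7d and in T_Dysf 1 of 10 did. The members had a median of 0.15 in T_Dysf (0.11 over all genes of that mean), 0.25 in Acute-7d (0.15) and 0.30 in Acute-2d (0.19). Between the same 2 Effector libraries the summed markers of dendritic cells went from 568 to 115 and those of myeloid cells from 634 to 279.7. Those of NK cells went from 567 to 256. *Xcr1* (545.5 and 101) made up most of the dendritic sum and *Klrb1c* (551 and 244) most of the NK sum. *Clec9a*, *Klra8*, *Csf1r* and *Adgre1*, all at low levels, did not fall, and *Siglech* was at 0 in both. The part of these markers in the replicate differences was not tested. The widest differences in Effector were those of *Nfkb2*, *Rel*, *Relb* and *Nfkbia*.

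**Figure D3:**
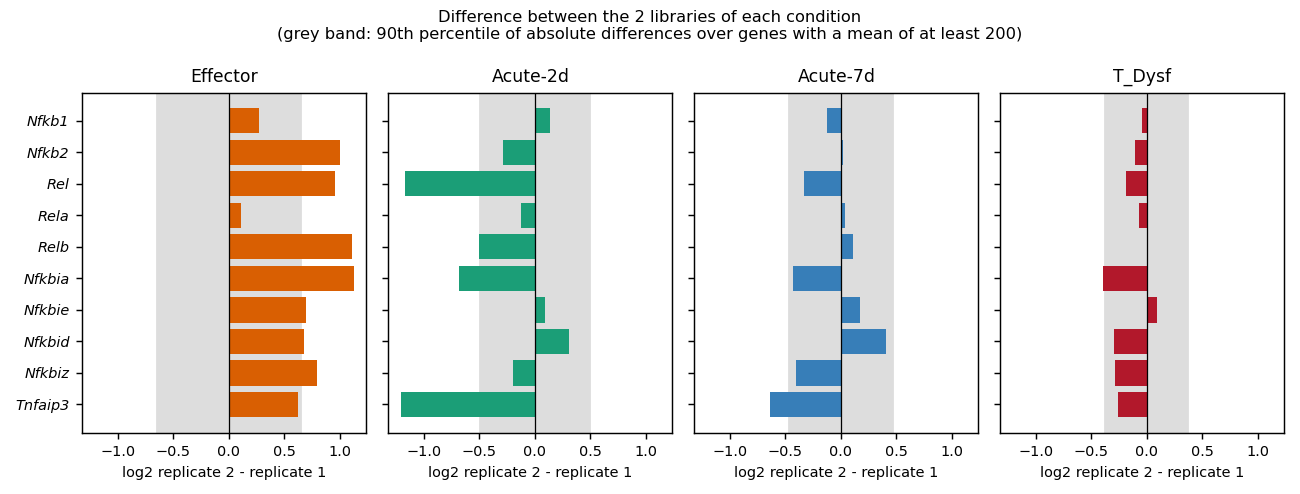
Log2 difference of replicate 2 minus replicate 1 (horizontal axes) for the 10 genes in each condition; the grey band reaches to the 90th percentile of absolute differences over 9578 genes. All 10 bars point to replicate 2 in Effector, where 7 leave the band.

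The genes fell into groups by how they varied over the 8 libraries. *Nfkb2* and *Relb* had a Pearson r of 0.91 and *Nfkb2* and *Nfkbia* one of 0.89, and these 3 genes share the wide Effector replicate difference. *Nfkbiz* had an r of 0.92 with *Rela* and 0.93 with *Tnfaip3*, while *Nfkbid* and *Tnfaip3* had one of -0.67. These values describe 8 libraries in 4 conditions, and differences between conditions and depth of libraries enter them. Among 10911 genes with a mean of at least 100, those most like *Nfkbiz* were *Zfp831*, *Cant1* and *Dennd4c*, each with an r of 0.99 or more, and *Zfp831* averaged 285 in Effector and 734 in T_Dysf, below its means of 1155 and 1302 in the Acute-2d and Acute-7d conditions. The genes most like *Tnfaip3* were *Nub1*, *Zfp994* and *Zfp869* (r of 0.98 to 0.99). Those most like *Nfkbid* were *Srp68*, *Bud23* and *Creld2* (0.98 to 0.99), and those most like *Nfkbia* were *Prrc2c*, *Mpeg1* and *Cxcl10* (0.93 to 0.95).

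The 7 pathway lists held 70 other genes of the pathway, all of them in the table. Between T_Dysf and Acute-7d, 4 were higher and 6 lower by the call, against 2.54% and 3.03% of all genes. That is 14.3% of the 70 genes, beside 5.57% of all genes. In a fit of the 12028 genes with a mean of at least 50 alone, 12.3% of those genes were called. The route from the T cell receptor to IKK holds 12 genes, among them *Chuk* and *Ikbkb*, which encode the kinases of IKK. It had 0 called in any of the 7 comparisons, where 0.169% to 9.22% of all genes were. The same held for the linear ubiquitin machinery and its adaptors (8 genes), the alternative route (6 genes) and the other family members *Nfkbib* and *Bcl3*. Under 2-fold but at an adjusted p under 0.05, *Ikbkb*, *Tab2*, *Ikbkg* and *Sharpin* were lower in Effector than in both Acute conditions. *Tab1* and *Traf2* were higher, and *Birc2* was lower against Acute-2d alone. Of all genes, 14.9% and 15.7% passed that adjusted p against Acute-7d and Acute-2d. *Ikbkb* stood at -0.77 against Acute-7d (limma, adjusted p = 0.00576) and at -0.70 against Acute-2d (adjusted p = 0.00567). *Prkcq*, the kinase PKCθ that starts the route to IKK, was 5230.3 and 5417 in Acute-7d and 2842 and 2798 in T_Dysf (log2 -0.92, adjusted p = 0.00813), short of 2-fold. *Bcl3*, an atypical IkB, was 297 and 479.6 in Acute-7d and 1149 and 1062 in T_Dysf (log2 1.55, adjusted p = 0.0511). *Prkcq*, *Bcl3* and the genes given here by their adjusted p alone were named after their values were seen.

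Receptors of the TNF family, which feed into NF-kB, held 2 genes called higher and 3 called lower of 8 in T_Dysf against Acute-7d. The shares over all genes were 2.54% and 3.03%. *Tnfrsf1b*, the receptor TNFR2, rose from 2814 and 2414 in Acute-7d to 5298 and 5560.2 in T_Dysf (log2 1.06 ± 0.11, adjusted p = 0.0120). *Cd27*, a costimulatory receptor, fell from 3079 and 2747 to 1363 and 1299.8 (log2 -1.13, adjusted p = 0.0128), and *Fas*, a death receptor, fell from 114 and 108 to 25.0 and 14.2 (log2 -2.49, adjusted p = 0.0181). *Tnfrsf25* was at 23.4 and 19.2 in Acute-7d and at 0 in both T_Dysf libraries, so it was at least 7.98-fold lower against a floor of 3 reads per library (2.67 normalized counts, which covers counting error only). *Tnfrsf9*, the receptor 4-1BB, was at 2691 and 3009 in T_Dysf and 3207 and 4216 in Effector, above 951 to 1416 in the Acute libraries (pooled log2 1.38, adjusted p = 0.00778).

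Of 24 known NF-kB targets, 2 were called higher and 3 lower in T_Dysf against Acute-7d (2.54% and 3.03% of all genes). In the pooled comparison 3 were called higher and 3 lower (3.74% and 4.44% of all genes). In Effector 6 were called higher and 2 lower against Acute-7d (4.18% and 3.88% of all genes), and likewise 6 and 2 against Acute-2d (4.31% and 4.48%). The 2 lower genes were *Irf1* and *Myc* both times, while *Bcl2a1b*, *Bcl2a1d*, *Il2ra*, *Ccl3* and *Ccl4* were higher both times, with *Irf4* added against Acute-7d and *Bcl2l1* against Acute-2d. *Bcl2a1b* and *Bcl2a1d* are near-identical copies whose reads may be split uncertainly. The chemokine genes *Ccl4* and *Ccl3* rose, *Ccl4* from 66.9 and 128 in Acute-7d to 3633 and 3091 in T_Dysf (log2 5.16 ± 0.33, adjusted p = 0.00392) and *Ccl3* from 31.2 and 91.9 to 2442 and 2266 (log2 5.43 ± 0.59, adjusted p = 0.0122). *Myc*, a driver of growth, fell from 17721 and 11335 to 4537 and 4228 (log2 -1.69, adjusted p = 0.0176). *Irf1*, an interferon-response factor, fell from 29014 and 16637 to 4570 and 4888 (log2 -2.22, adjusted p = 0.0310), with 2332 and 4004 in Effector. The median of the 24 targets was -0.07, beside 0 over all genes. Each of these targets also answers to other factors.

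Of 12 brakes beside A20, 0 were called in T_Dysf against Acute-7d and 1 in the pooled comparison. This was *Tnip3*, which encodes a partner of A20, at 270.5 and 125 in Effector and 57.0 and 70.3 in T_Dysf against 11.2 to 38.4 in the Acute libraries (pooled log2 2.26 ± 0.51, adjusted p = 0.0401). In Effector 1 was called, lower, against either Acute condition. This was *Zc3h12a*, which encodes the RNase Regnase-1, at 464 and 646 in Effector against 1276 to 2294 in the Acute libraries (log2 -1.75 against Acute-7d, adjusted p = 0.0355, and -1.55 against Acute-2d, adjusted p = 0.0441). It was named after its values were seen, as were the targets listed for Effector. Of all genes, 5.57% were called in T_Dysf against Acute-7d, 8.18% in the pooled comparison, and 8.06% and 8.78% in Effector against Acute-7d and Acute-2d.

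**Figure D4:**
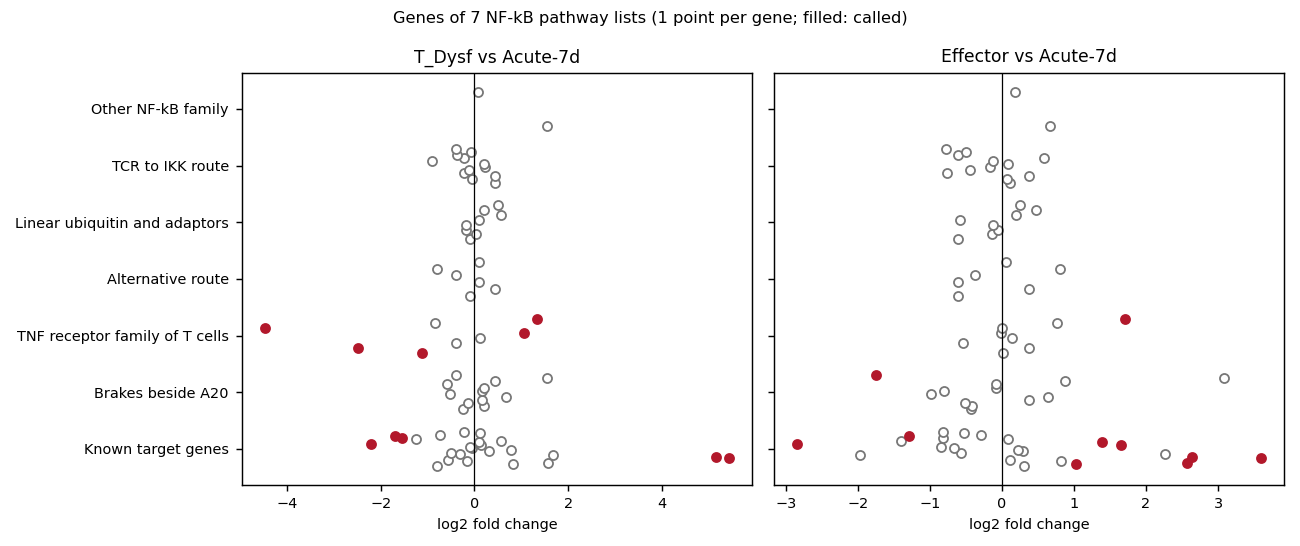
Log2 fold changes (horizontal axes) of the genes of 7 NF-kB pathway lists in T_Dysf and in Effector, each against Acute-7d; 1 point is 1 gene and filled points are called. Filled points stand in the TNF receptor and target lists at left, 4 higher and 6 lower, and none in the route from the receptor to IKK. At right, 7 stand higher and 3 lower, 6 and 2 of them among the targets. The leftmost point at left, *Tnfrsf25*, is at 0 in both T_Dysf libraries, so its plotted value is no bound.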

How the data were processed

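Poly(A) RNA of P14 cells was sequenced in 4 conditions with 2 libraries each. In Partek Flow, the authors mapped reads to mm10 with STAR and estimated gene counts on RefSeq transcripts. The authors then scaled each library by its median-ratio size factor, as in DESeq2. The sources used here give no version for STAR or for this scaling. The deposited values are thus a signal and are called normalized counts. What 1 read is worth was taken from the low values of each library. Between 53.3% and 73.9% of values under 1000 reads came within 0.02 of a whole read, so no count model was fitted.

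All 24303 genes and 8 libraries were fitted with limma 3.58.1 (lmFit, eBayes with trend; R 4.3.3) on log2(normalized count + 1), with 4 group means, no covariate and 4 residual degrees of freedom. Called genes had a 2-fold or larger change and an adjusted p (Benjamini-Hochberg over all genes, two-sided) under 0.05. Fold changes are on that log2 scale. The 7 comparisons were the 6 pairs of conditions and the mean of Effector and T_Dysf against the mean of Acute-2d and Acute-7d, and a moderated F test covered the 4 conditions together. The procedure was tested on simulated data whose spread was taken from these replicates.

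The members, the pathway lists and the tests were chosen with earlier results of these data known. The named genes were the 10 members, up to 4 called genes of each pathway list with the smallest adjusted p in T_Dysf against Acute-7d and then in the pooled comparison, and, for the 4 members with the widest range of group means, the 3 genes of highest Pearson r among genes with a mean of at least 100. Outside this rule, *Prkcq*, *Bcl3*, *Zc3h12a* and targets called in Effector were named after their values were seen. So were the genes of the IKK route and its adaptors that changed less than 2-fold. Marker lists covered CD8 T, CD4 T, B, plasma, myeloid, dendritic, NK and erythroid cells. Alternatives were pseudocounts of 0.1 and 10, genes with a mean of at least 50, 75th-percentile and quantile rescaling, a fit of the compared groups alone, a replicate block, a RESUB prefix term, eBayes without trend, other thresholds, and leaving out each library in turn. Gene positions came from GENCODE and promoter sequences from RefSeq, both for GRCm38 (mm10). The authors' filter on features with a low maximum is given in the methods, but the deposited table also holds genes below it.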

Additional observations from a re-analysis of the deposited data

How the results depend on the processing

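The results below cover 8 counts of members and 70 member log2 fold changes, and 1180 alternative values were computed for the latter. Of these, 1100 kept their sign and their side of the call, 7 lost a call, 14 gained one and 59 changed sign. Many of the 1180 could not change sign. A gene filter, eBayes without trend, a replicate block and a fit of the compared groups alone leave the log2 difference as it was. So does leaving out a library of a condition that is not compared. Sign changes came in 29 of the 70 results, of which 0 had an unadjusted p under 0.05 as reported, and 47 of the 59 came from leaving out a library.

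When the genes with a mean of at least 50 were tested alone, the members called were 1 (*Nfkbiz*) in T_Dysf against Acute-7d, 2 (*Nfkbid* and *Nfkbiz*) against Acute-2d, and 2 (*Nfkbiz* and *Tnfaip3*) in Effector against each Acute condition and in the pooled comparison, and 4 passed the F test. Of the 12028 genes it tests, 12.3%, 14.1%, 16.1%, 17.7% and 12.4% were called in these 5 comparisons. Quantile normalization called 2 in Effector against Acute-2d and 2 in the pooled comparison, *Tnfaip3* being added. Fits of the compared groups alone called 0 where Effector was compared with T_Dysf, Acute-7d or Acute-2d, the adjusted p of *Nfkbiz* being 0.0878, 0.0972 and 0.0884, with the folds as reported. Calls over all genes fell as well, to 1.91%, 0.638% and 0.967%, and these fits have 2 residual degrees of freedom. With a RESUB term 0 were called in T_Dysf against Effector and in Effector against Acute-2d, and 1 passed the F test. Without a fold minimum 2 passed in each Effector pair and 3 in the pooled comparison. At an unadjusted p with the 2-fold minimum, 1 passed in T_Dysf against Acute-7d, 2 against Acute-2d, and 2 in Effector against each Acute condition and in the pooled comparison. The causes were not tested.

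The replicate numbers were not taken as pairs, since the correlation of replicate differences over 9578 genes ran from -0.23 to 0.19 between conditions, with 2 of 6 over 0.1. A replicate block left the member counts at 0, 0, 1, 0, 1, 1 and 1 and the F count at 2, while its pooled adjusted p for *Nfkbid* was 0.0517.

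Leaving out 1 library at a time gave 0 to 1 member called in T_Dysf against Acute-7d, 0 to 1 against Acute-2d and 0 to 1 against Effector, 0 to 1 in Effector against Acute-7d, 1 to 2 in the pooled comparison and 1 to 2 for the F test. *Nfkbiz* was gained in the first 2 without either Effector library, which lowers its adjusted p from 0.0910 to 0.0463 or 0.0461 and from 0.0765 to 0.0382 or 0.0381. Its call was lost against Effector without T_Dysf replicate 1 (adjusted p = 0.0805) and in Effector against Acute-7d without Acute-7d replicate 1 (adjusted p = 0.0534). In the pooled comparison *Nfkbid* was gained without Effector replicate 1 and *Tnfaip3* without Acute-2d replicate 2, and *Rela* no longer passed the F test without T_Dysf replicate 1. A condition left with 1 library was assumed to vary like the others.

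Sign changes outside these came with rescaling to equal 75th percentiles (*Rela* at -0.068 in T_Dysf against Acute-7d and -0.033 against Acute-2d, *Nfkbie* at -0.050 in the pooled comparison) and with quantile normalization (*Nfkb1* at 0.0091 in Effector against Acute-7d, *Nfkbie* at -0.060 in the pooled comparison). A RESUB term turned *Rela* to -0.0090 in T_Dysf against Acute-7d, *Relb* to -0.074, *Nfkbia* to 0.019 and *Nfkbid* to -0.28 in T_Dysf against Effector, *Rel* to -0.069 in Acute-7d against Acute-2d, and *Nfkbie* to 0.071 and 0.0014 in Effector against Acute-7d and Acute-2d. Of these, the values of *Rela*, of *Rel* and of *Nfkbie* against Acute-7d are the same as those found by leaving out an Acute-7d library. The log2 ranges over leaving out each library follow for results that changed sign. For T_Dysf against Acute-7d they were -0.023 to 0.043 for *Rela*. For T_Dysf against Acute-2d they were -0.32 to 0.86 for *Rel* and -0.031 to 0.094 for *Rela*. T_Dysf against Effector gave -0.77 to 0.23 for *Nfkb2*, -0.97 to 0.15 for *Nfkbia*, -0.21 to 0.47 for *Nfkbid*, -0.085 to 0.61 for *Nfkbie* and -0.52 to 0.59 for *Relb*. Effector against Acute-7d gave -0.17 to 0.10 for *Nfkb1*, -0.69 to 0.32 for *Nfkb2*, -0.67 to 0.46 for *Nfkbia*, -0.36 to 0.33 for *Nfkbie*, -0.84 to 0.12 for *Rel* and -0.93 to 0.18 for *Relb*. Effector against Acute-2d gave -0.54 to 0.47 for *Nfkb2*, -0.78 to 0.34 for *Nfkbia*, -0.52 to 0.17 for *Nfkbie*, -0.85 to 0.32 for *Rel* and -0.89 to 0.22 for *Relb*. Acute-7d against Acute-2d gave -0.46 to 0.22 for *Nfkbia*, -0.031 to 0.38 for *Nfkbid*, -0.23 to 0.17 for *Nfkbiz*, -0.49 to 0.68 for *Rel*, -0.041 to 0.085 for *Rela*, -0.21 to 0.29 for *Relb* and -0.85 to 0.36 for *Tnfaip3*. The pooled comparison gave -0.50 to 0.0065 for *Nfkb2*, -0.14 to 0.21 for *Nfkbie* and -0.34 to 0.25 for *Rel*.

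Between any pair of conditions, with 2 libraries each, the 95% intervals of *Rel*, *Relb*, *Nfkbia* and *Tnfaip3* reach more than 2-fold to either side of the estimate, and those of the pooled comparison less. The RESUB prefix covers both Effector libraries and 1 of Acute-7d, and it and the condition cannot be fully told apart. GP33 and TGF-β1 were given together in T_Dysf, and no library here separates them.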
